A study of Mus musculus with 12 samples.

Results

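Genes that mark the decidual stroma of the pregnant mouse uterus were followed in RNA of single mouse embryos at embryonic day 7.0, the stage of gastrulation. The set held 9 genes, Cryab, Pgr, Hand2, Des, Wnt4, Igf1, Esr1, Dcn and Lum, found by symbol among the 55291 genes of the deposited table. The rule that chose them used gene names and no threshold on a measured value. All 9 passed the filter on low values, which asked for 10 normalized counts or more in 5 or more embryos and kept 16455 genes. The embryos were untreated wild-type C57BL/6J, 5 female and 7 male, and each library was made from 1 embryo with the SMARTer Ultra Low Input and Nextera XT kits. They came from 7 litters. Litters 3, 6 and 9 held both sexes, and the other 4 litters gave 1 embryo each. No uterine or decidual sample was part of the data, so no value of pure maternal tissue was at hand to scale these levels.

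The decidua is the lining that the uterus builds around an implanting embryo. Progesterone acts through its receptor on fibroblasts of the uterine stroma, which enlarge, change their cytoskeleton and secrete signals, and the embryo lies embedded in them at this stage. Dissection of an embryo from its implantation site can carry decidua, maternal blood and trophoblast along, while some of the same genes are also used by the embryo, its extraembryonic membranes or its blood vessels.

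Depth was alike across the libraries. Taking the most common low value of a library as 1 fragment gave 83.0 to 114 times 1000000 fragments per embryo, and in the same unit 91.8 ± 5.44 for the females (SD, n = 5) and 98.2 ± 10.3 for the males (SD, n = 7). The smallest level told apart from 0 was taken as 3 fragments, which came to 2.49 to 3.40 normalized counts. That floor covers counting error only, because fragments copied by amplification do not count separate molecules. The label of the tissue held in its markers, with Pou5f1 and Dnmt3b of the epiblast at means of 41031 and 204332 normalized counts, and the Y-linked genes Ddx3y and Eif2s3y were called lower in females. The 9 decidual genes together held 2617 to 5260 normalized counts per embryo, or 0.00276% to 0.00549% of all normalized counts. Cryab and Des made up 66.4% to 86.6% of that sum, so the sum says little of the other 7 genes. In whole embryos, fewer cells of a type and less RNA per cell cannot be told apart.

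Set on one scale, per kilobase of merged exons, the levels fell into 3 tiers. Cryab averaged 1233 ± 523.5 normalized counts per kilobase (SD, n = 12) and Des 384.6 ± 77.8. Hand2, Pgr and Dcn followed at means of 42.3, 33.2 and 26.2, and Lum, Wnt4, Igf1 and Esr1 at 6.44, 5.09, 5.00 and 4.89. Among neighbours in this order, the ranges over embryos were apart for Des against Hand2 alone, and the other 7 neighbouring pairs overlapped. For scale, Prl8a2, a prolactin-family hormone of the decidua, averaged 15579 per kilobase. The remaining values in the text are normalized counts per gene, not per length.

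**Figure D1:**
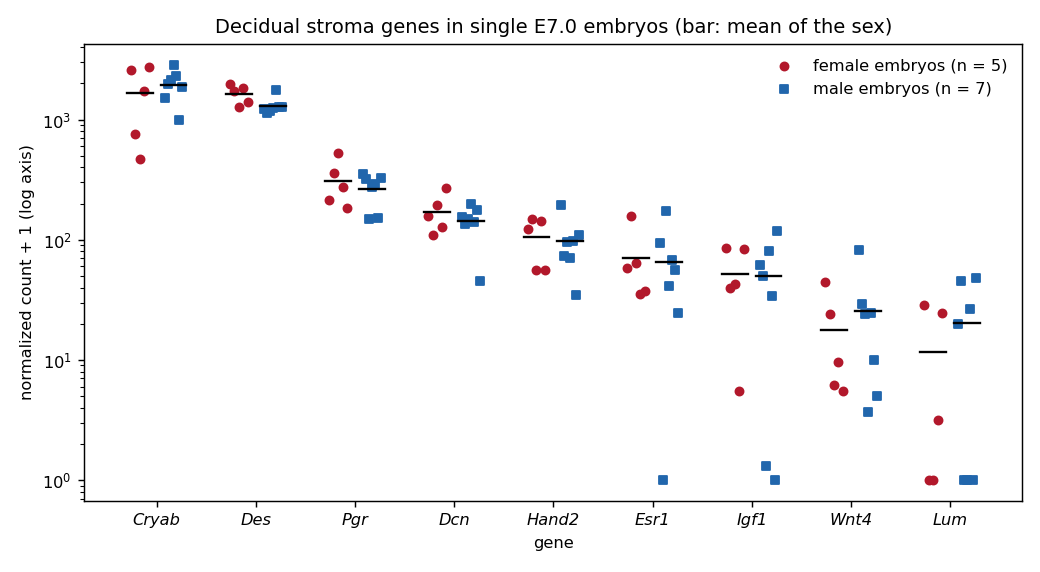
Normalized count plus 1 (log axis) of the 9 decidual stroma genes in each of 12 embryos, with female embryos as red circles (n = 5), male embryos as blue squares (n = 7) and the mean of each sex as a black bar. Females and males overlapped for every gene, and Esr1, Igf1 and Lum were at 0 in 1, 1 and 5 embryos.

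The steroid receptors come first by role. Pgr encodes the progesterone receptor, on which decidualization depends, and lies on chromosome 9 at 8899833 to 8968611 (GRCm38, plus strand). Its normalized count was 214, 357, 521, 273 and 181 in females 1 to 5, and ran from 149 through a median of 289.9 to 351 in the males. Female 3 was the highest of the 12 embryos, males 3 and 6 were the lowest, and the sexes overlapped. Esr1, the estrogen receptor alpha (chromosome 10, 4611593 to 5005614, plus strand), was at 56.9, 158, 63.2, 34.6 and 36.1 in the females and from 0 through 55.0 to 174 in the males. Male 2 held no Esr1 fragment and male 3 the most, although both came from litter 3. Pgr and Esr1 did not follow each other over the 12 embryos, with Pearson's r of -0.16 (permutation p = 0.624) and Spearman's rho of 0.06 (permutation p = 0.867).

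Hand2 is a transcription factor that acts under progesterone in the uterine stroma, and it is also used by lateral mesoderm and heart of the later embryo. It lies on chromosome 8 at 57320983 to 57324633 (plus strand) and overlaps the antisense gene Hand2os1, from which its reads there cannot be told apart without strand. Hand2 stood at 122, 148, 55.4, 143 and 55.0 in females 1 to 5, and from 34.0 through 95.4 to 195 in the males. Male 1 was highest and male 6 lowest, and the females lay inside the range of the males.

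The secreted signals were low and uneven. Igf1, the insulin-like growth factor that uterine stroma makes under estrogen (chromosome 10, 87858265 to 87937042, plus strand), stood at 85.0, 38.8, 42.1, 4.51 and 82.8 in the females and from 0 through 49.2 to 118 in the males. Males 3 and 6 lay at or under 3 fragments, so they held no detectable Igf1 at this depth. Wnt4, a Wnt ligand needed for decidualization (chromosome 4, 137277489 to 137299726, plus strand), stood at 43.2, 22.9, 5.22, 8.62 and 4.49 in the females and from 2.67 through 23.2 to 81.3 in the males. Male 1 was highest in Wnt4 with female 1 next, and male 4 was at the floor. Igf1 overlaps the antisense gene Igf1os.

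Of the structural genes, Cryab was the most abundant. It encodes alpha B-crystallin, a small heat shock protein that is abundant in lens and muscle, and lies on chromosome 9 at 50751325 to 50756636 (plus strand). Its span shares 1030 bases with Hspb2 on the other strand, whose own count was 0 to 79.1 per embryo, small beside that of Cryab. Cryab stood at 2584, 756, 468, 1712 and 2733 in females 1 to 5, and from 995 through 1979 to 2857 in the males. Females 3 and 2 and male 6 were the 3 lowest, and the highest embryo held 6.10 times the lowest. The SD of Cryab on the log2 scale was 0.81, larger than that of 76.0% of genes tested, whose median was 0.32, and it was the largest among Cryab, Des, Pgr, Dcn and Hand2, the 5 genes of highest count.

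Des encodes desmin, the intermediate filament of muscle, which decidual cells also make. It lies on chromosome 1 at 75360329 to 75368579 (plus strand), and its span overlaps the antisense gene Gm15179. It stood at 1972, 1727, 1268, 1834 and 1409 in the females and from 1135 through 1258 to 1753 in the males. Females 1, 4 and 2 and male 5 were high, and the remaining 8 embryos lay between 1135 and 1409. Its SD of 0.28 on the log2 scale was below the median of all genes tested, so Cryab and Des, close in level, differed in how far they varied.

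Dcn and Lum are neighbours on chromosome 10, with 46984 bases between them, and encode the small leucine-rich proteoglycans decorin and lumican of collagen matrix. Dcn (97479609 to 97518143, plus strand) stood at 155, 108, 193, 126 and 267 in the females and from 44.0 through 147 to 195 in the males. Female 5 was highest and male 7 lowest. Lum (97565128 to 97572703, plus strand) stood at 27.5, 0, 0, 2.15 and 23.6 in the females and from 0 through 19.1 to 47.4 in the males. It lay at or under 3 fragments in 6 of the 12 embryos. Lum was highest in male 7, where Dcn was lowest, and the pair had r = -0.29 (permutation p = 0.415) and rho = -0.36 (permutation p = 0.257) over the 12 embryos.

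The series set out to compare female with male embryos, and none of the 9 decidual genes differed by sex in limma's moderated test after Benjamini-Hochberg adjustment over all 16455 genes. Over all genes tested the share called was 0.0425%, so 0 of 9 is also what the background gives. At an unadjusted p under 0.05, 1 of the 9 passed, where the share over all genes was 10.8%. That gene was Des, with a female mean of 1642 ± 294 (SD, n = 5) beside a male mean of 1302 ± 206 (SD, n = 7). The log2 fold change, female over male, came to 0.33 on the log2(normalized count + 1) scale, with a standard error of 0.14 and a limma adjusted p of 0.406. Within litters, female minus male on that scale was 0.77 in litter 3, -0.24 in litter 6 and 0.14 in litter 9, so its sign was not the same in all 3.

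None of the other 8 genes had an unadjusted p under 0.05 in limma. Cryab averaged 1651 ± 1030 in females and 1946 ± 591 in males, a log2 fold change of -0.48 with a standard error of 0.40 (limma adjusted p = 0.716), and of -0.097 without female 3. The female was above the male mean in litters 3 and 9, by 0.33 and 0.55, and below it in litter 6, by a log2 difference of -1.69. Fold changes of Dcn (0.30), Pgr (0.19) and Hand2 (0.16) were smaller than their standard errors of 0.37, 0.31 and 0.44. The 4 low genes had wide errors, with log2 fold changes of 0.87 for Igf1, 0.78 for Esr1, -0.32 for Wnt4 and -0.66 for Lum and standard errors of 0.86 to 1.41. In all, 6 of the 9 values were above 0 and their median was 0.19, beside a median of -0.00 over all genes tested. The authors' deposited table called none of the 9 either, with adjusted p-values of 0.280 (Des) to 0.998 (Igf1), where it called 1.14% of the genes it gave an adjusted p.

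Embryos of a litter share a mother, so the litters were compared too. No gene of the 9 differed between the 7 litters in limma's F-test, where the share of all genes called was 0.0122%. The lowest limma adjusted p was 0.843, for Wnt4, with an unadjusted p of 0.0761, and that of Cryab was 0.915, with an unadjusted p of 0.152. None of the 9 had an unadjusted p under 0.05, as 6.33% of all genes did. With 4 litters of 1 embryo, the spread within a litter was estimated on 5 degrees of freedom. Within litter 6 alone, Cryab ran from 468 in female 3 to 995 in male 6 and 2293 in male 5.

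Whether the 9 genes were high and low in the same embryos was measured as the correlation of log2(normalized count + 1) over the 12 embryos. In all, 90 relations were computed, with p-values adjusted over the 90 by Benjamini-Hochberg. They were the 36 pairs of the 9 genes, the 45 relations of each gene with 5 reference measures for blood, decidual hormone, trophoblast, parietal endoderm and leukocytes, and the 9 relations with Xist in the males. The leukocyte measure was Ptprc alone, which did not pass the filter on low values and was at 0 in most embryos. A weak r with Ptprc is therefore no finding. The 36 pairs had a median r of 0.09 and ranged from -0.50 (Esr1 with Lum) to 0.59 (Pgr with Igf1). Of them 24 were above 0, and none passed the adjustment, where the smallest adjusted permutation p was 0.595 by Pearson and 0.351 by Spearman. The highest pair was uneven, since Pgr with Igf1 had a rho of 0.27 (permutation p = 0.389) and an r of -0.13 without males 3 and 6.

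**Figure D2:**
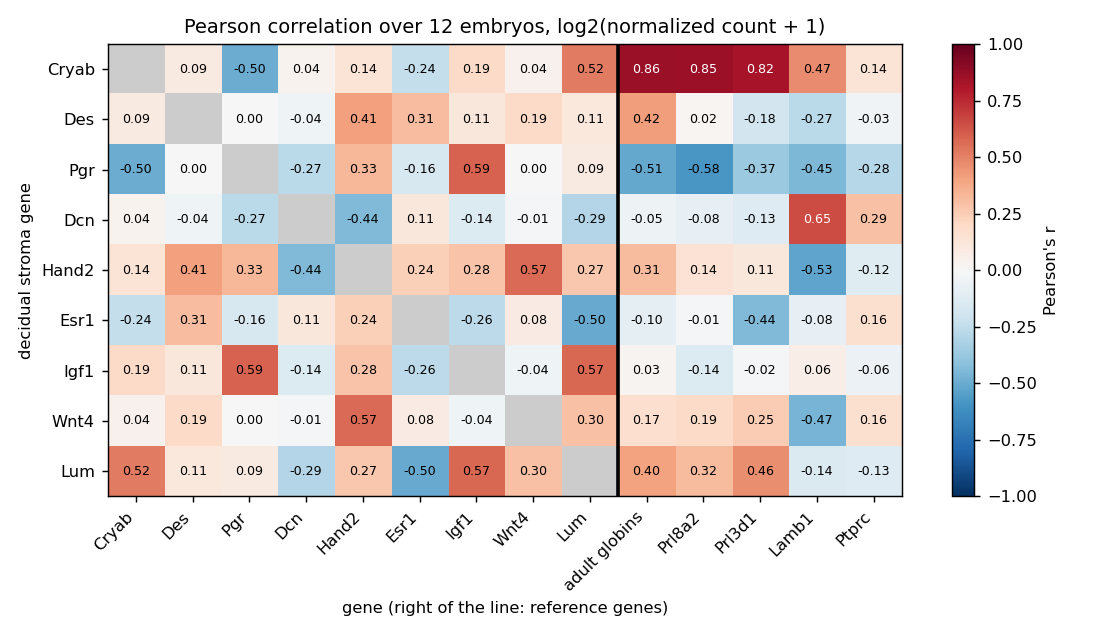
Pearson's r over 12 embryos (colour and printed value) between each decidual stroma gene (rows) and, left of the black line, the other decidual genes, and right of it, measures of blood (summed adult globins), decidual or trophoblast hormone genes (Prl8a2, Prl3d1), parietal endoderm (Lamb1) and leukocytes (Ptprc). Cryab stands out with 0.86, 0.85 and 0.82 in the first 3 columns right of the line, while the pairs left of it run from -0.50 to 0.59. Ptprc did not pass the filter on low values.

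Other gene lists show what a set that moves together looks like in these libraries. The median r between genes of a list was 0.97 for the 4 adult globins, 0.83 for parietal endoderm (8 genes), 0.82 for visceral endoderm (8 genes) and 0.68 for trophoblast (9 genes). It was 0.08 for 13 other decidualization genes and 0.00 for 15 genes of stromal matrix and mesenchyme, near the 0.09 of the decidual stroma genes. The list of stromal matrix and mesenchyme includes Dcn and Lum. As deviations from litter means in 8 embryos, the median over the decidual pairs was 0.30. Lum, Wnt4, Igf1 and Esr1 reached 3 fragments or fewer in some embryos, and a weak r with such sparse genes is no finding. Cryab, Des, Pgr, Dcn and Hand2 stayed above that floor in every embryo. Pairs among them also varied, from r = -0.50 for Cryab with Pgr to 0.41 for Hand2 with Des. The genes in the lists were chosen with earlier results of these data known, so the medians are descriptions.

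**Figure D3:**
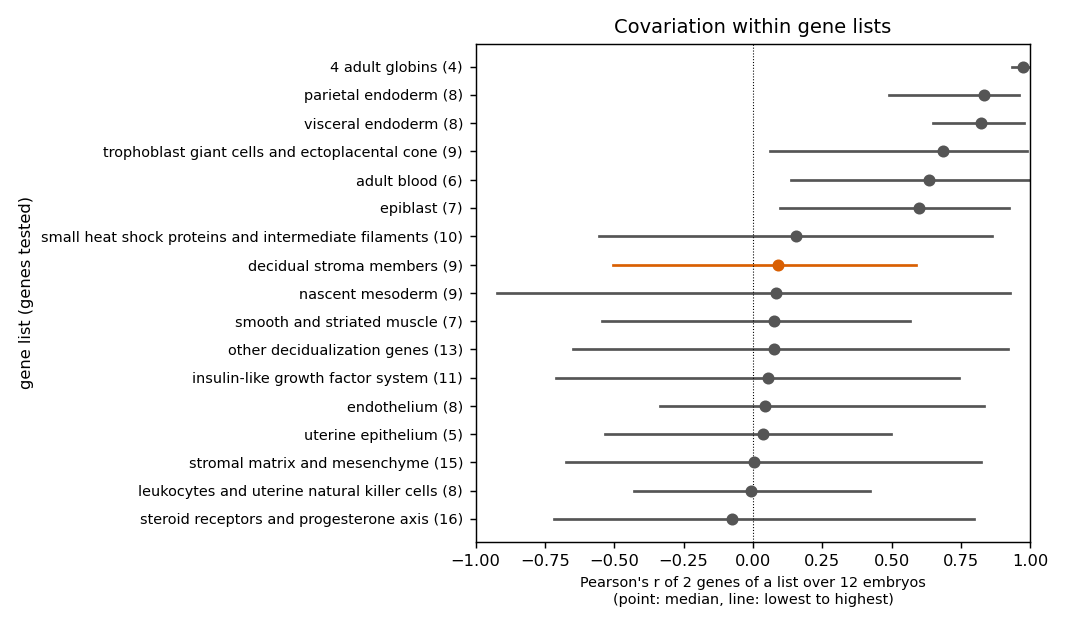
Pearson's r between every 2 genes of a list over 12 embryos, with the median as a point and the lowest to highest value as a line, for 17 gene lists, the number of genes tested in brackets. The decidual stroma genes (orange) have a median of 0.09, beside 0.97 for the globins and 0.83 for parietal endoderm.

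Cryab alone among the 9 passed the adjustment with any of the 5 reference measures, in 3 relations by Pearson and in none by Spearman. The 3 measures stood for maternal blood, trophoblast and, with Prl8a2, the decidua itself. The genes compared were chosen with earlier results of these data known. The permutations took no account of litter, so litter mates counted as independent embryos in these p-values. The 4 adult globins, Hba-a1, Hba-a2, Hbb-bs and Hbb-bt, are made by red cells of the mother's blood at this stage. Their summed count was 7072, 2294, 366, 5930 and 6020 in females 1 to 5, and ran from 1125 through 3646 to 6747 in the males. Female 3 was lowest both in globins and in Cryab, and male 6 was the lowest male in both. Cryab and the globins had r = 0.86 (permutation p = 0.00068, adjusted 0.0306) and rho = 0.76 (permutation p = 0.00553, adjusted 0.153). Without females 3 and 2, the 2 embryos farthest from the median of Cryab, r was 0.79 (permutation p = 0.00637). The r over deviations from litter means in the 8 embryos of litters 3, 6 and 9 was 0.99. Of all genes tested, 0.188% had a higher r with Cryab than the globins had.

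The other 2 relations were with hormone genes of the prolactin family. Prl8a2, made by decidua, stood at 19292, 3811, 2397, 9389 and 10831 in the females and from 7424 through 13863 to 41907 in the males. With Cryab it had r = 0.85 (permutation p = 0.00034, adjusted 0.0306) and rho = 0.80 (permutation p = 0.00304, adjusted 0.153). Prl3d1, placental lactogen of trophoblast giant cells, stood at 15735, 2202, 1336, 8866 and 7357 in the females and from 5620 through 22555 to 54012 in the males, with r = 0.82 (permutation p = 0.00125, adjusted 0.0375) and rho = 0.64 (permutation p = 0.0273, adjusted 0.351). Without females 3 and 2, over 10 embryos, both r values were smaller and their permutation p was no longer under an unadjusted 0.05. No p is given for rho in these 10 embryos. For Prl8a2 r was 0.57 (permutation p = 0.089) and rho 0.65, and for Prl3d1 r was 0.45 (permutation p = 0.194) and rho 0.38. Over deviations from litter means, r was 0.84 and 0.76.

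The count of relations that passed by Pearson moved with single embryos. It was 3 over all 12 embryos and 3 without male 2, 2 without female 4, female 5 or male 4, 1 without male 3, and 0 without any other embryo, female 3 and male 6 among them. The r of Cryab with the globins itself stayed between 0.72 (without female 3) and 0.91 (without female 2). Once the mean of each sex was removed, this relation also passed by Spearman, with an adjusted permutation p of 0.0279, beside 0.153 without that step. The values left were permuted over all 12 embryos and not within each sex, so that p is approximate. Blood, decidual hormone and trophoblast genes moved together with Cryab, and the part of each in the others was not tested.

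**Figure D4:**
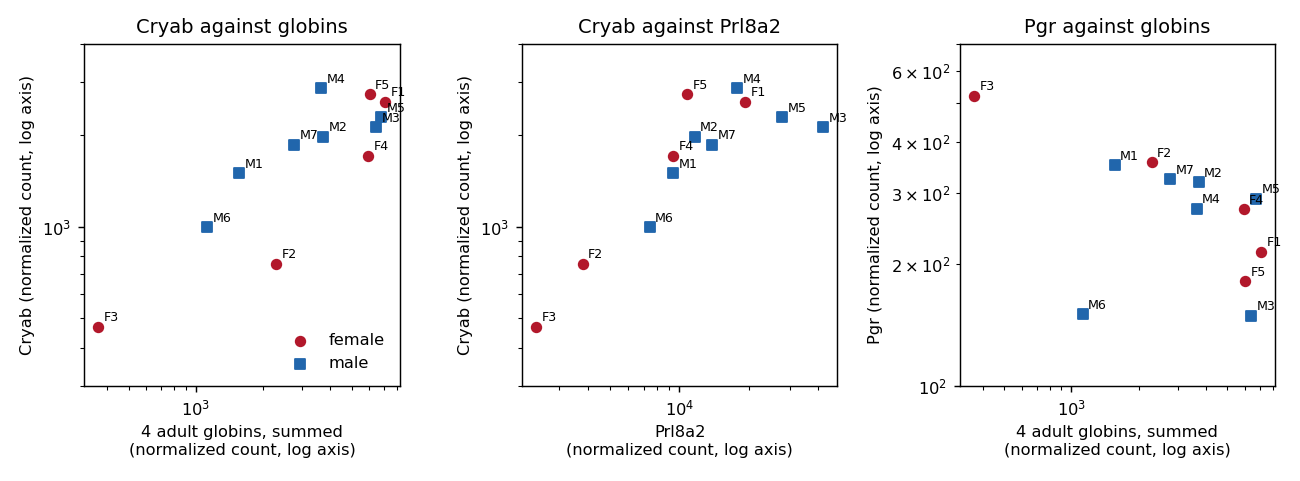
Normalized counts on log axes in 12 embryos, female as red circles and male as blue squares with replicate numbers, for Cryab against the summed adult globins (left), Cryab against Prl8a2 (middle) and Pgr against the globins (right). Cryab rises with both, with r of 0.86 and 0.85, and female 3 is at the low end of each, while Pgr is highest in female 3.

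Pgr ran the other way, without passing the test. Its r with the globins was -0.51 (permutation p = 0.0917, adjusted 0.595) and rho -0.55 (permutation p = 0.0709), and r was -0.87 without males 3 and 6, its farthest embryos, but -0.17 without female 3 alone (permutation p = 0.624, adjusted 0.951), so the size rested on single embryos. With Prl8a2, Pgr had r = -0.58 (permutation p = 0.0464, adjusted 0.595) and rho = -0.51 (permutation p = 0.0934). That r was -0.66 without males 3 and 6 and -0.36 without female 3. Among the genes other than Cryab and Pgr, r with Prl8a2 ran from -0.14 for Igf1 to 0.32 for Lum, and none passed. Female 3, with the least globin and the least Cryab, had the most Pgr. Cryab and Pgr had r = -0.50 (permutation p = 0.0992, adjusted 0.595) and rho = -0.53 (permutation p = 0.079), and r was 0.11 without females 3 and 2, so that its sign rested on them. Dcn with Lamb1, a basement membrane laminin of parietal endoderm, had the highest remaining value, r = 0.65 (permutation p = 0.0305, adjusted 0.595) and rho = 0.78 (permutation p = 0.00394, adjusted 0.153), and r was 0.59 without male 7 and female 5.

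Xist, the RNA that coats the inactive X chromosome, is made by female cells, so in a male embryo it can mark the mother's cells. It stood at 109, 123, 561, 337 and 322 in females 1 to 5, and in males 1 to 7 at 0, 8.42, 1.66, 0, 8.19, 38.6 and 7.06. Males 1, 3 and 4 were at or under 3 fragments. The genes Xist and Tsix overlap on opposite strands, so without strand their reads cannot be told apart. Male 6 had the most Xist of the males, the lowest Cryab and Hand2 of the males and no detectable Igf1 or Lum. Its Pgr (150) and Wnt4 (9.07) were below the male median, while its Dcn (175), Des (1278) and Esr1 (55.0) were at or above it. Male 3, at or under 3 fragments of Xist, also had no detectable Igf1 or Lum. Over the 7 males, r of the 9 genes with Xist ran from -0.67 for Hand2 (exact permutation p = 0.0861, adjusted 0.595) to 0.22 for Des (exact permutation p = 0.672, adjusted 0.961). None passed, 7 of the 9 were below 0, and the rho values were -0.45 for Hand2 (exact permutation p = 0.311) and 0.27 for Des (exact permutation p = 0.551). The r of Hand2 with Xist was -0.33 without male 6 and turned to 0.45 without males 6 and 1. Without males 6 and 4 the r of Cryab with Xist was 0.69 in place of -0.57 (exact permutation p = 0.179, rho = -0.38 with exact permutation p = 0.405), so its sign rested on them.

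Lists around the 9 genes were read from the same sex comparison, and several of them hold some of the 9. Over all genes tested the share called was 0.0425%, so a list with none called is also what the background gives. Of 15 other decidualization genes 13 were tested, and none was called in limma. The highest in level were Gja1, a gap junction protein (51117 normalized counts), Ccnd3, a cyclin (21243), and Igfbp4 (14948), and embryonic cells use these widely. Hoxa10 and Hoxa11, homeobox genes of the uterine stroma, averaged 145 and 95.1. Of 16 genes of the steroid receptors and the progesterone axis, 1 was called, Esr2, the estrogen receptor beta, at 12.2, 24.6, 35.6, 23.3 and 49.3 in the females and at 0 in all 7 males. It passed the filter on low values through the females alone, so the filter and the comparison drew on the same values. The limma adjusted p of Esr2 was 0.0474, which ranged from 0.0603 to 0.220 when any single embryo was left out, so the call ended each time, while the log2 fold change was 4.77 over all embryos and 4.55 to 5.03 in those fits. That fold change depends on the pseudocount, since the males were all at 0. The call does too, with a limma adjusted p of 0.189 at a pseudocount of 0.1 and 0.052 at 10. On the log2 values as deposited the limma adjusted p was 0.0125, and with upper quartiles made equal it was 0.0441. With litter or the replicate number as a block, the limma adjusted p of Esr2 was 0.335 or 0.611, and with no filter it was 0.00044. The authors' deposited table gives Esr2 an adjusted p of 8.86e-07. Of 15 stromal matrix genes tested none was called, with Fbln1 (14269) and Pdgfra (5030) the most abundant. Smooth and striated muscle (7 tested), small heat shock proteins and intermediate filaments (10 tested) and the insulin-like growth factor system (11 tested) had none called. Markers of uterine epithelium were tested for 5 of 8 genes and of leukocytes for 8 of 15, with Ptprc, the defining leukocyte antigen, at 0 in 8 embryos. Neither list had a gene called. The log2 fold changes of all 9 trophoblast genes tested were below 0, with a median of -1.75, and none was called (smallest limma adjusted p = 0.277), although 7 of the 9 had an unadjusted p under 0.05. Those of all 8 visceral endoderm genes were above 0, with a median of 0.53, and none was called (smallest limma adjusted p = 0.142), with 6 of the 8 under an unadjusted 0.05. The share of all genes under an unadjusted 0.05 was 10.8%. Genes within each of these lists moved together, with a median r of 0.68 and 0.82, so they are not separate observations. The part of these shifts in the sex values of the decidual genes was not tested.

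The genes whose pattern was most like that of each decidual gene were taken as the 5 with the highest r among all genes tested. For Cryab they were 3830417A13Rik, Nipal1, Cd74, Cdh5 and Tnfaip2, with r of 0.93, 0.92, 0.92, 0.91 and 0.91. Cdh5 is the cadherin of endothelial junctions and Cd74 the invariant chain of antigen-presenting cells. The median r of Cryab was 0.84 with adult blood genes, 0.59 with trophoblast, 0.46 with parietal endoderm, 0.45 with endothelium, 0.21 with other decidualization genes and 0.07 with the other 8 decidual genes, beside 0.01 with all genes. These lists include genes given above, with the adult globins under blood, Prl3d1 under trophoblast and Prl8a2 under other decidualization genes. Those medians are therefore not separate from the relations above. The median r of Cryab was -0.23 with visceral endoderm and -0.26 with epiblast, where none of the 8 and 7 genes had an r above 0. With leukocyte genes, a list without Cd74, it was 0.08, and 5 of 8 were above 0. It was 0.37 with Xist and Y-linked genes, 0.24 with small heat shock proteins and intermediate filaments, and 0.22 with nascent mesoderm. The remaining lists gave 0.11 (stromal matrix), 0.03 (muscle), -0.05 (steroid receptors), -0.09 (insulin-like growth factors) and -0.14 (uterine epithelium).

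For the other 8 genes, the single most alike gene was Ftsj1 for Pgr (r = 0.86), Eif3k for Hand2 (0.90), Traf7 for Des (0.93), Tecr for Wnt4 (0.87), Snora73b for Igf1 (0.94, with a rho of 0.44), Lekr1 for Esr1 (0.91), Pon2 for Dcn (0.91) and Ss18l2 for Lum (0.88). The 9 genes themselves were left out of this ranking. Each value is the highest among the other genes tested, over 12 embryos that share their libraries, and is a description.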

How the data were processed

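RNA of 12 single embryos was analysed. Each embryo was 1 replicate, and sex and litter came from the labels. Per the submitters' processing notes, the build was mm10 and the tools included DESeq2 1.34.0, Salmon 1.5.2, STAR 2.7.7a and cutadapt 4.1; their settings are not given in the sources used here, nor is the use of strand in counting. The columns per embryo, deposited by the authors, hold variance-stabilized log2 values with a floor of 10.4141. A deposited mean signal for each gene is in normalized counts. The deposited p-value and log2 fold change columns served only as values of the authors.

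The log2 values were inverted to normalized counts, and 98.9% of genes with a mean above 0 gave back the deposited mean within a relative 1e-06, all 9 decidual genes among them. Whole reads were not recovered, since 83.8% to 86.2% of low values lay within 0.1 of a whole multiple, so no count model was used. limma 3.58.1 in R 4.3.3 was fitted to log2(normalized count + 1) with an intensity trend of the variance and with sex or litter as the term and two-sided tests adjusted over 16455 genes. Correlations had 100000 permutations, or all 5040 orders of the 7 males. Gene positions and exon lengths came from GENCODE (GRCm38). Genes named were all 9 members, called list genes or up to 3 of the highest level, and the 5 most alike genes of each member; Hoxa10, Hoxa11 and the list genes named beside a correlation were chosen after their values were seen. The members and lists were chosen with earlier results of these data known. Scripts were tested on simulated data. Alternatives covered the pseudocount, filter, scaling, blocks and each embryo left out.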

Additional observations from a re-analysis of the deposited data

Results flagged for a closer look

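In 26 groups of embryos of 1 sex, 5 values stood apart from the rest by Dixon's 95% criterion, and chance flags about 1 in 20 groups where values are normally distributed. The criterion was applied to normalized counts and not to their log2 values, so the rate of chance flags here is not known. Among the males, Des in male 5 was 1753 normalized counts, with the next at 1278. Wnt4 in male 1 was 81.3, with the next at 28.1. Dcn in male 7 was the lowest at 44.0, with the next at 135. Xist in male 6 was 38.6, with the next at 8.42. Among the females, Esr1 in female 2 was 158, with the next at 63.2. The 5 values came from 5 different embryos.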

How the results depend on the processing

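None of the decidual genes tested was called by sex under 8 other settings or with any embryo left out, nor between litters under 6 settings; a filter at 100 normalized counts tested only 5 of the 9, without Wnt4, Igf1, Esr1 and Lum. Over all genes, the sex comparison called 7, and 4 with the replicate block and 4 with litter as a block (5 to 9 with an embryo left out). The replicate numbers do not pair embryos, since same-numbered embryos correlated at -0.07 to 0.01 and 0 of 5 females matched their own number best. The litter comparison called 2 genes, but 33 at a pseudocount of 0.1 and 0 at a pseudocount of 10, with sex as a second term or in litters of 2 or 3 embryos alone; the cause was not tested. The count of correlations that passed by Pearson was 0 to 3 with an embryo left out and 3 under 4 other settings. Female over male reversed for Hand2, to -0.035 with the replicate block and -0.084 with litter as a block, and with an embryo left out ran from -0.061 to 0.35 for Hand2, -0.022 to 0.36 for Pgr, -0.76 to 0.078 for Wnt4 and -0.074 to 1.17 for Esr1. The other ranges with an embryo left out kept their sign, at -0.73 to -0.097 for Cryab, 0.26 to 0.42 for Des, 0.047 to 0.45 for Dcn, 0.15 to 1.56 for Igf1 and -1.31 to -0.10 for Lum. Cryab with Pgr turned to r = 0.11 without the 2 farthest embryos. The median r over pairs of the 9 genes was 0.30 within litters, and 0.01 to 0.14 with an embryo left out. Depth limits Lum, Igf1, Wnt4 and Esr1, which reached 3 fragments or fewer in 6, 2, 1 and 1 embryos.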
